A study of Homo sapiens with 8 samples.

Results

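The genes described here are factors that detect collided ribosomes, take stalled ribosomes apart or silence the message on which they stalled. The list held 10 genes, ZNF598, ASCC2, ASCC3, GIGYF1, GIGYF2, EIF4E2, EDF1, PELO, HBS1L and GCN1, and members were the rows of the count files whose symbol is on it. Of these, 8 had a row, each as 1 gene and transcript pair, and all 8 passed the filter on low counts, among 13306 genes tested of 17179 symbols. ZNF598 and GIGYF2 were not analysed here. The libraries are ribosome footprints of 293T, an established line from human embryonic kidney that expresses the SV40 large T antigen. They fall into 4 groups of 2 libraries: cells with shNBD1, a short hairpin RNA that the titles call non-cleaving, its shRNA control (titled Scr), cells with miRNA inhibitors, and their inhibitor control (titled NC control). The labels give no dose, no time and no names of the inhibited miRNAs, and all 4 groups had reads on an NBD1 reporter.

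When a ribosome stalls on a message, the ribosome behind runs into it, and together they form a surface that several factors read. The ubiquitin ligase ZNF598 marks proteins of the small subunit, the ASCC complex then pulls the collided ribosomes apart, and EDF1 brings in GIGYF proteins with the cap-binding protein EIF4E2, which block new initiation on that message. GCN1 links collided ribosomes to the kinase GCN2, and PELO with HBS1L frees ribosomes that stall without a stop codon in place. GIGYF proteins and EIF4E2 also bind TNRC6 proteins and take part in silencing by miRNAs, the process that the inhibitors of the study act on.

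Total counts ran from 11218980 to 19854218 per library. The row of the NBD1 reporter, whose name the hairpin shares, stood at 7040 and 7233 CPM (counts scaled to library size) with shNBD1 against 9129 and 9082 CPM in the shRNA control. Of 8 genes usual in 293T, KRT8 (at least 978 CPM), KRT18 (at least 425 CPM), VIM (at least 3063 CPM) and IGF2BP1 (at least 234 CPM) were high in every library, PAX2, LIN28B and NEFM were low, and NEFL had no row. Of 10 markers of blood, endothelial, fibroblast, muscle and liver cells, PTPRC, HBB, CDH5 and ALB each had 0 counts in at least 1 library and at most 14 counts over all 8. COL1A2 (at most 0.511 CPM), PECAM1 (at most 2.27 CPM) and DES (5.07 to 8.64 CPM) were low, while CD68 lay between 10.6 and 38.5 CPM and COL1A1 between 24.2 and 61.0 CPM. The summed level of these 10 markers was 436 to 444 CPM with shNBD1 and 375 to 404 CPM in its control, and it was 464 to 508 CPM with the inhibitors and 570.0 to 577 CPM in theirs, mostly ACTA2, which lay between 291 and 532 CPM. The part of these shifts in the results below was not tested. Without matched RNA libraries in the comparison, more message and more translation of it cannot be told apart, nor can fewer cells and fewer footprints per cell. The labels do not state that replicates came from separate cultures. The p-values therefore rest on the spread of these libraries alone, and that spread may be technical.

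The 8 measured genes had between 208 counts (GIGYF1, shRNA control replicate 2) and 10048 counts (GCN1, inhibitor control replicate 2) in a library. Counting error alone was 4.84% to 6.93% for GIGYF1, 3.91% to 5.52% for EIF4E2, and at most 3.37% for the other 6. Between the 2 libraries of a group the coefficient of variation of the members had a median of 2.34% in the shRNA arm and 8.92% in the inhibitor arm, where it reached 16.6% for GIGYF1 in the inhibitor control. The model estimates 1 spread for each gene over all 8 libraries, so the standard errors and intervals below do not carry this difference between the arms. Levels are given as CPM on library sizes scaled by trimmed mean of M-values (TMM). They are not set against each other between genes, because coding lengths were not used here.

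**Figure D1:**
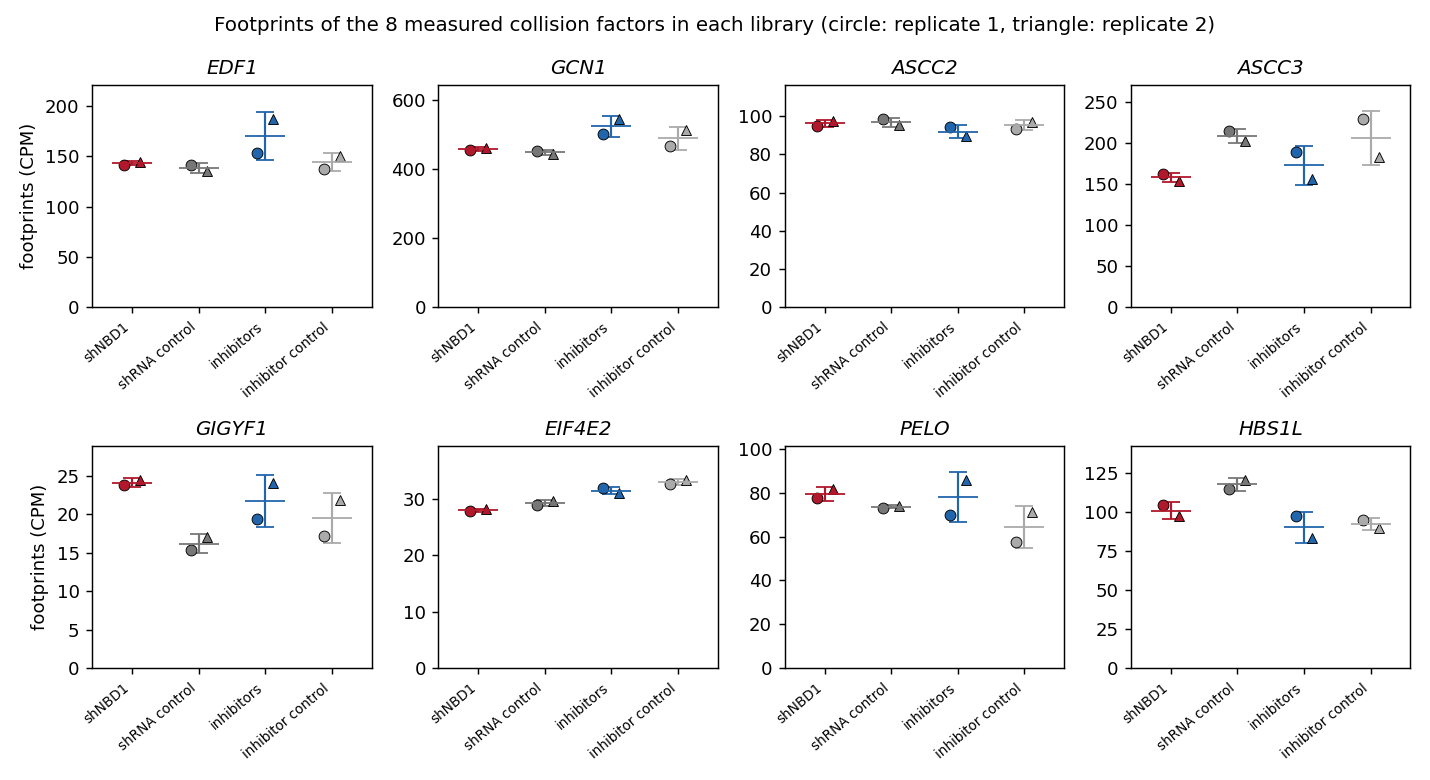
Footprints (CPM, vertical axes from 0) of the 8 measured genes in each library, with bars for the mean and SD of the 2 libraries of a group. GIGYF1 stood at 23.8 and 24.5 CPM with shNBD1 against 15.3 and 17.0 CPM in the shRNA control, ASCC3 showed the opposite order, and the libraries of the inhibitor arm were spread more widely in most genes.

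With shNBD1, 1 of the 8 genes rose and 1 fell, against 9.18% of all genes that rose and 9.15% that fell in the same fit (18.3% in either direction). GIGYF1, a partner of EIF4E2 in translational repression, rose 1.49-fold, and ASCC3, the helicase that splits collided ribosomes, fell to 0.758 of its control level. A pair of calls among 8 genes is close to the share of all genes. The other 6 did not pass the test, and the median log2 fold change of the 8 genes was 0.01, as against 0.00128 over all genes tested. In 6 of the 8 genes (75%) the groups did not overlap, compared with 69% of all genes. With the inhibitors 0 of the 8 genes passed in edgeR's quasi-likelihood test, in DESeq2 and in limma-voom. At an unadjusted p under 0.05 in edgeR there were 2 (25%, against 16.4% of all genes). Of all genes 0.12% were called by edgeR, 0.0376% higher and 0.0827% lower. DESeq2 called 1.13% of the 9694 genes to which it gave an adjusted p. The groups did not overlap in 2 of the 8 genes (25%), EDF1 and EIF4E2, compared with 40.8% of all genes.

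Among the sensors, EDF1, a small protein that sits on collided ribosomes, had 142 and 145 CPM with shNBD1 and 142 and 135 CPM in the shRNA control. The groups overlapped, and the log2 fold change was 0.05 ± 0.09 (SE), with a 95% interval from -0.16 to 0.26 (edgeR adjusted p = 0.762). With the inhibitors EDF1 had 153 and 187 CPM, against 138 and 151 CPM in the inhibitor control. Both inhibitor libraries lay above both control libraries, with replicate 2 much the higher. The log2 fold change of 0.24 ± 0.09 did not pass over all genes (edgeR adjusted p = 0.249, unadjusted p = 0.0285). Without inhibitors replicate 2 it was 0.08, and without inhibitors replicate 1 it was 0.37 and passed in edgeR's test (adjusted p = 0.0250), so its size rested on inhibitors replicate 2.

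GCN1, the large scaffold through which collided ribosomes activate the kinase GCN2, gave values close to those of its controls. It had 454 and 461 CPM with shNBD1 against 453 and 443 CPM in the shRNA control, and the lowest hairpin library was barely above the highest control. The log2 fold change was 0.03 ± 0.07 (95% interval -0.13 to 0.19, edgeR adjusted p = 0.801). With the inhibitors it had 502 and 545 CPM, and 466 and 513 CPM in the inhibitor control. The groups overlapped, and the log2 fold change was 0.10 ± 0.07 (95% interval -0.06 to 0.25, edgeR adjusted p = 0.518). GCN1 had the most counts of the set in every library, and so the smallest counting error.

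The ASCC complex has 4 subunits on the lists used here, of which ASCC3 passed with shNBD1 and ASCC2, ASCC1 and TRIP4 did not. ASCC3 (ENSG00000112249, chromosome 6, 100508194 to 100881329, GRCh38.p14) is the helicase subunit. It had 162 and 154 CPM with shNBD1, against 214 and 203 CPM in the shRNA control. Both hairpin libraries lay below both controls, and the log2 fold change was -0.40 ± 0.12 (edgeR adjusted p = 0.0359). The call was lost without any 1 of the 4 libraries of the comparison, with log2 fold changes from -0.44 to -0.35. Each such fit also called fewer of all genes in both directions. With the inhibitors ASCC3 had 189.5 and 156 CPM, against 229 and 183 CPM in the inhibitor control. The inhibitor libraries were on average lower, but inhibitors replicate 1 lay above control replicate 2, so the groups overlapped. The log2 fold change was -0.25 ± 0.11 (95% interval -0.51 to 0.000560, edgeR adjusted p = 0.306). In edgeR's test it was -0.41 without inhibitor control replicate 2 (adjusted p = 0.0496), -0.08 without inhibitor control replicate 1, -0.13 without inhibitors replicate 2, and 0.05 without both inhibitor control replicate 1 and inhibitors replicate 2.

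ASCC2, the subunit that binds the ubiquitin left by ZNF598, was the steadiest of the 8 genes, with a highest library only 1.10 times the lowest. It had 95.003 and 97.6 CPM with shNBD1 and 98.6 and 95.2 CPM in the shRNA control, a log2 fold change of -0.01 ± 0.07 (95% interval -0.16 to 0.14, edgeR adjusted p = 0.942). With the inhibitors it had 94.5 and 89.5 CPM, and 93.5 and 97.1 CPM in the inhibitor control. That log2 fold change was -0.05 ± 0.07 (95% interval -0.20 to 0.10, edgeR adjusted p = 0.751). Both pairs of groups overlapped, and the intervals leave room for changes of up to 0.20 on the log2 scale. ASCC1 had 46.5 and 41.1 CPM with shNBD1 against 48.9 and 50.3 CPM in the shRNA control, a log2 fold change of -0.18 ± 0.10 that did not pass (edgeR adjusted p = 0.228). TRIP4, a zinc-finger subunit also known as ASC-1, had 25.5 and 24.3 CPM with shNBD1 against 28.8 and 28.5 CPM in the shRNA control, a log2 fold change of -0.20 ± 0.10 that did not pass (edgeR adjusted p = 0.167). In both genes the hairpin libraries lay below both controls, while in 69% of all genes these groups did not overlap. With the inhibitors the log2 fold change was -0.20 ± 0.10 for ASCC1 (edgeR adjusted p = 0.353), whose inhibitor libraries lay below both controls, and -0.01 ± 0.10 for TRIP4 (edgeR adjusted p = 0.957), whose groups overlapped. ASCC1 was also higher in the shRNA control than in the inhibitor control, by 0.42 ± 0.10 on the log2 scale (edgeR adjusted p = 0.0105).

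Of the repressors, GIGYF1 (ENSG00000146830, chromosome 7, 100679507 to 100694250, GRCh38.p14) was the gene with the widest range, its highest library being 1.60 times its lowest. This protein binds EIF4E2 and, through its GYF domain, proline-rich stretches such as those of TNRC6 proteins. It had 23.8 and 24.5 CPM with shNBD1 against 15.3 and 17.0 CPM in the shRNA control. The groups were well apart, further than their replicates and further than counting error, with a log2 fold change of 0.58 ± 0.14 (edgeR adjusted p = 0.0204). As for ASCC3, leaving out any 1 of the 4 libraries ended the call, in fits that called fewer of all genes. The log2 fold changes ran from 0.51 to 0.66. With the inhibitors GIGYF1 had 19.4 and 24.1 CPM, and 17.2 and 21.8 CPM in the inhibitor control. Replicate 2 was the higher library in both groups, and the groups overlapped. The log2 fold change of 0.14 ± 0.14 did not pass (95% interval -0.17 to 0.46, edgeR adjusted p = 0.634), and it was -0.02 without inhibitor control replicate 1 and -0.02 without inhibitors replicate 2.

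EIF4E2, the cap-binding protein that competes with the initiation factor eIF4E, did not follow GIGYF1. It had 27.8 and 28.1 CPM with shNBD1, against 28.8 and 29.6 CPM in the shRNA control. Both hairpin libraries were lower by a small margin, with a log2 fold change of -0.06 ± 0.09 (95% interval -0.25 to 0.13, edgeR adjusted p = 0.643). With the inhibitors it had 31.9 and 31.0 CPM, against 32.6 and 33.4 CPM in the inhibitor control. These groups too were separate but close, with a log2 fold change of -0.07 ± 0.08 (95% interval -0.25 to 0.12, edgeR adjusted p = 0.721). With shNBD1 the fitted change of -4.30% was smaller in size than the counting error of every library of the comparison, 4.80% to 5.26%.

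The rescue pair gave values of opposite sign under shNBD1, neither past the threshold. PELO, a relative of the release factor eRF1, had 77.4 and 81.9 CPM with shNBD1 against 73.2 and 74.2 CPM in the shRNA control. Both hairpin libraries were higher, but the log2 fold change was 0.11 ± 0.12 (95% interval -0.14 to 0.37, edgeR adjusted p = 0.539). HBS1L, the GTPase that delivers PELO to the ribosome, had 105 and 97.3 CPM with shNBD1 against 115 and 121 CPM in the shRNA control. Both hairpin libraries were lower, with a log2 fold change of -0.22 ± 0.09 (95% interval -0.41 to -0.03, edgeR adjusted p = 0.101). On the 4 libraries of the shRNA arm alone, whose replicates were closer, the adjusted p for HBS1L was 0.00204, while 41.9% of all genes were called in that fit (20.4% lower).

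With the inhibitors PELO had 69.8 and 86.0 CPM, against 57.4 and 71.1 CPM in the inhibitor control. Replicate 2 was the higher library in both groups, and the groups overlapped. The log2 fold change of 0.27 ± 0.12 did not pass (edgeR adjusted p = 0.278, unadjusted p = 0.0387). It was 0.41 without inhibitors replicate 1 (edgeR, adjusted p = 0.0527), 0.43 without inhibitor control replicate 2 (edgeR, adjusted p = 0.0537), 0.11 without inhibitors replicate 2, 0.12 without inhibitor control replicate 1, and -0.03 without both inhibitor control replicate 1 and inhibitors replicate 2. HBS1L had 97.5 and 83.3 CPM with the inhibitors, and 95.03 and 89.7 CPM in the inhibitor control, overlapping groups with a log2 fold change of -0.03 ± 0.09 (95% interval -0.22 to 0.16, edgeR adjusted p = 0.902). PELO lies within the annotated span of ITGA1, an integrin gene (PELO on chromosome 5, 52787916 to 52804044, GRCh38.p14), and how reads in the overlap were assigned is not given in the sources used here. ITGA1 had 85.3 and 82.0 CPM with shNBD1 and 64.9 and 62.4 CPM in the shRNA control, a log2 fold change of 0.39 ± 0.09 (edgeR, adjusted p = 0.0145). It had 71.1 and 59.0 CPM with the inhibitors and 71.3 and 67.6 CPM in their control, overlapping groups that did not pass (edgeR, adjusted p = 0.656). Whether reads of ITGA1 enter the count of PELO was not tested.

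**Figure D2:**
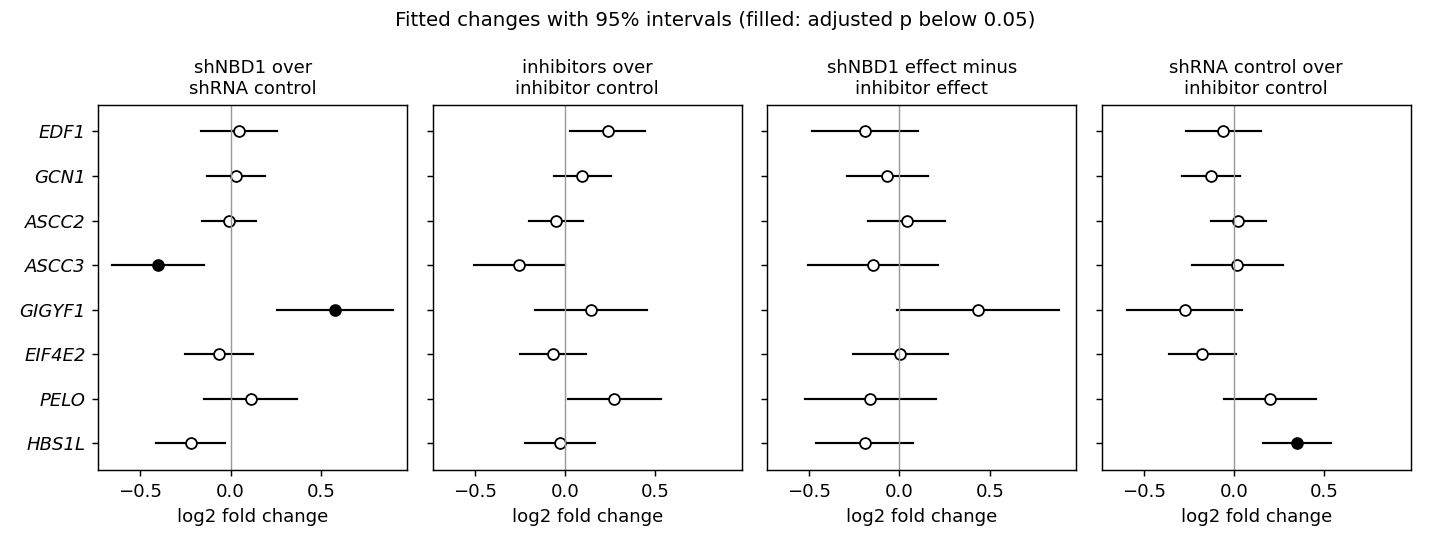
Log2 fold changes (horizontal axes) with 95% intervals of the 8 measured genes in the 4 comparisons, filled where the adjusted p was below 0.05. GIGYF1 (0.58) and ASCC3 (-0.40) passed with shNBD1, HBS1L (0.35) passed between the controls, and no interval of the difference between the treatments lay wholly on 1 side of 0.

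Whether the treatments differed in their effect was tested with the interaction of the same model. For the difference, the shNBD1 effect minus the inhibitor effect, edgeR called 0 of the 8 genes, and DESeq2 and limma-voom likewise called 0. Of all genes 7.44% were called by edgeR (3.48% higher and 3.96% lower). DESeq2 called 6.54% of the 11242 genes to which it gave an adjusted p. At an unadjusted p under 0.05 in edgeR there were 0 of the 8, against 24.5% of all genes. GIGYF1 had the largest value, 0.43 ± 0.20 on the log2 scale (95% interval -0.01 to 0.88, edgeR adjusted p = 0.216). For ASCC3 the difference was -0.15 ± 0.16 (95% interval -0.50 to 0.21, edgeR adjusted p = 0.636), so its call with shNBD1 alone does not show a response that the inhibitors lack. Without both inhibitor control replicate 1 and inhibitors replicate 2, a setting chosen after seeing the data, the differences became 0.76 for GIGYF1, -0.45 for ASCC3 and -0.34 for HBS1L. That fit sets inhibitors replicate 1 against inhibitor control replicate 2, and their spread is assumed to be that of the shRNA arm. The log2 ratio of replicate 2 to replicate 1, with the inhibitors and in their control, was 0.32 and 0.34 for GIGYF1. It was -0.28 and -0.33 for ASCC3 and -0.23 and -0.08 for HBS1L. A shift between replicates that both groups share would enter these differences, so no conclusion is drawn from them.

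Between the shRNA control and the inhibitor control, groups that received different control reagents, HBS1L differed. It had 115 and 121 CPM in the shRNA control against 95.03 and 89.7 CPM in the inhibitor control, a log2 fold change of 0.35 ± 0.09 (edgeR adjusted p = 0.0138). Of the 8 genes it was the 1 called, and 27.1% of all genes were called between the controls (13.5% higher and 13.6% lower). The call was lost without shRNA control replicate 1 (adjusted p = 0.0755) and without its replicate 2 (adjusted p = 0.125). Reagent and arm cannot be told apart in this comparison. In the order of the 4 group means, HBS1L was highest in the shRNA control, then with shNBD1, then in the inhibitor control, and lowest with the inhibitors, and only the last 2 neighbours in that order overlapped. GIGYF1 was highest with shNBD1 and lowest in the shRNA control, with both inhibitor arm groups between them, and shNBD1 overlapped with the inhibitors, the inhibitors with their control, while the inhibitor control and the shRNA control did not overlap. ASCC3 was highest in the shRNA control and lowest with shNBD1, and every group overlapped with the next in order.

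Several of the factors act as partners, so the ratio of their counts was set side by side across libraries. The size of a ratio depends on gene length, and only its course across libraries can be read. The ratio of ASCC3 to ASCC2 was 1.71 and 1.58 with shNBD1 against 2.17 and 2.13 in the shRNA control. The ratio of EIF4E2 to GIGYF1 was 1.17 and 1.15 with shNBD1 against 1.88 and 1.74 in the shRNA control. The ratio of HBS1L to PELO was 1.35 and 1.19 with shNBD1 against 1.56 and 1.63 in the shRNA control. In each of these 3 pairs the hairpin libraries lay below both controls. The direction depends on which gene was the numerator. ASCC2 (-0.01) and EIF4E2 (-0.06) changed little on the log2 scale, so the first 2 ratios restate the changes of ASCC3 and GIGYF1. For single genes, the groups did not overlap in 69% of all genes. With 2 libraries a group an exact two-sided permutation test cannot go below p = 0.333, which each pair gave, so the separations of these ratios are descriptions. In the inhibitor arm ASCC3 to ASCC2 was 2.01 and 1.74 with the inhibitors and 2.45 and 1.88 in the inhibitor control. EIF4E2 to GIGYF1 was 1.65 and 1.29 with the inhibitors and 1.89 and 1.53 in the inhibitor control, and HBS1L to PELO was 1.40 and 0.969 with the inhibitors and 1.66 and 1.26 in the inhibitor control. All 3 ratios overlapped between these groups (exact permutation p = 0.667 each), and in both groups replicate 2 had the lower ratio.

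**Figure D3:**
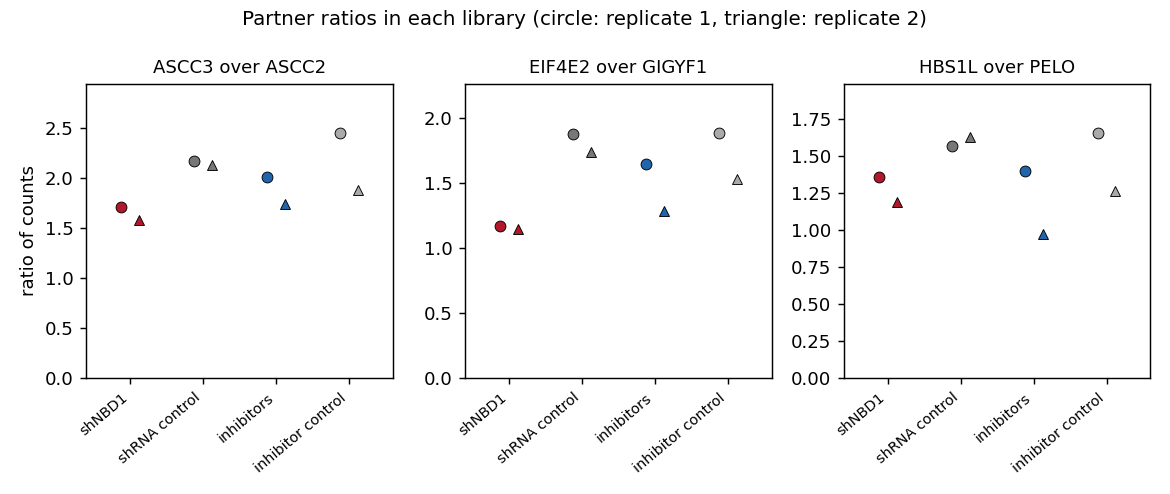
Ratio of counts between partner genes in each library (vertical axes from 0). With shNBD1 all 3 ratios lay below both shRNA control libraries, from 1.15 to 1.17 against 1.74 to 1.88 for EIF4E2 over GIGYF1, while the groups of the inhibitor arm overlapped. The direction depends on which gene is the numerator.

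For the genes called in any comparison, the genes of at least 20 CPM with the most similar course over the 8 libraries were sought among 6788 genes, by the root mean square difference of log2 CPM centred on each gene's mean. They were MARF1 (0.0307) and MORC4 (0.0408) for ASCC3, VARS1 (0.0463) and CHCHD10 (0.0533) for GIGYF1, and FAF1 (0.0291) and NDC1 (0.0346) for HBS1L. VARS1, for example, had 346 and 376 CPM with shNBD1 and 244 and 247 CPM in the shRNA control. Its direction is that of GIGYF1 because it was chosen by likeness over these same libraries. The points of each comparison share libraries, and such closeness is a description among many genes.

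Around these factors stands a wider pathway, for which a list of 55 other genes was used. Of these, 54 had a row and were tested, and DDX6 was not analysed here. With shNBD1 3 of the 54 rose and 6 fell (16.7%, against 18.3% of all genes), with a median log2 fold change of -0.10. With the inhibitors 1 rose and 0 fell in edgeR's test (1.85%, against 0.12% of all genes), 15 of the 54 had an unadjusted p under 0.05 (27.8%, against 16.4% of all genes), and the median was 0.09. DESeq2 and limma-voom also called 1 and 0. The share with shNBD1 is near that of all genes. Between the controls 15 of the 54 were higher and 8 lower in the shRNA control than in the inhibitor control (42.6%, against 27.1% of all genes), with a median log2 fold change of 0.14. The 8 of smallest p there were RPS20 (0.62), LTN1 (0.53), RNF14 (0.43), RWDD1 (0.40), RNF10 (0.36), ABCE1 (0.33), TCF25 (-0.53) and USP10 (-0.57). Their edgeR adjusted p ran from 0.000169 to 0.00750. RPS20, LTN1 and USP10 passed under all 13 alternatives, while each other call was lost without at least 1 shRNA control library. TRIP4 (0.28, edgeR adjusted p = 0.05004) and G3BP2 (-0.19, edgeR adjusted p = 0.0540) did not pass.

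**Figure D4:**
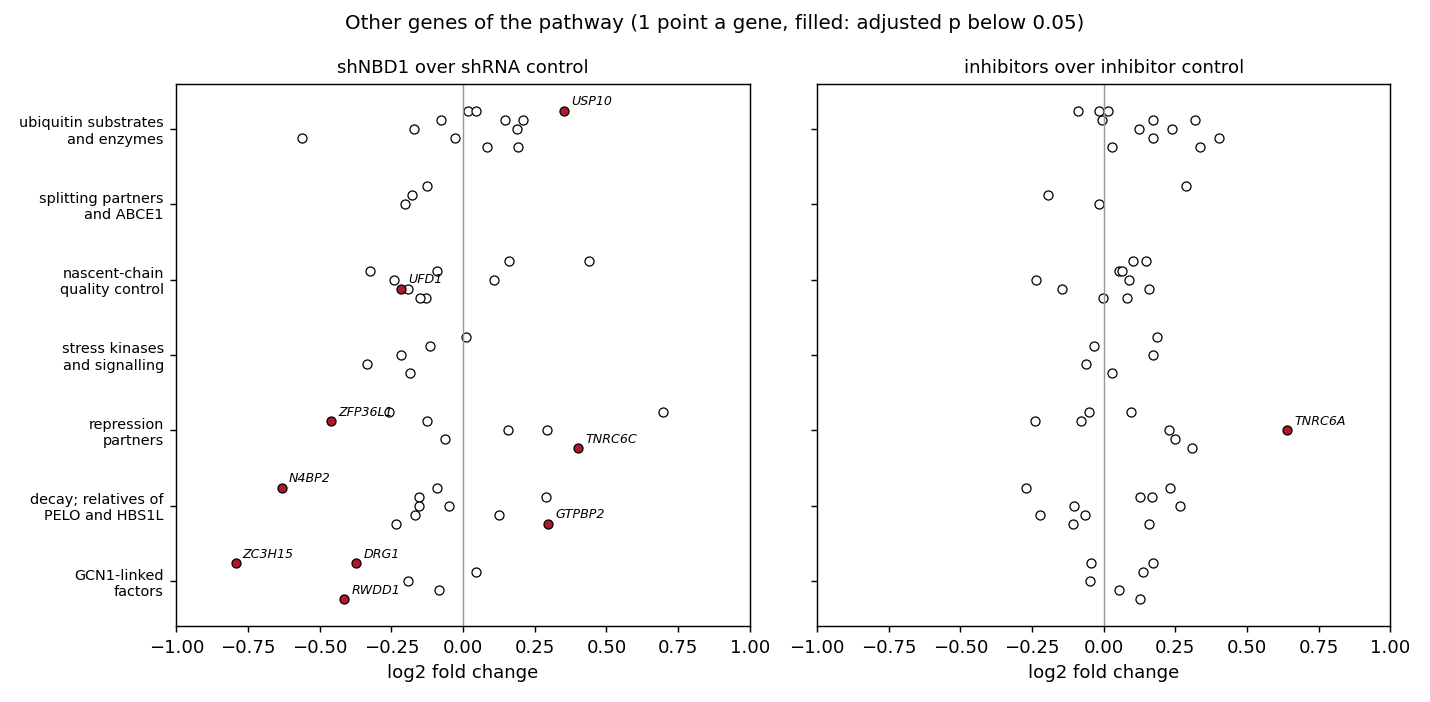
Log2 fold changes (horizontal axes) of the 54 other genes of the pathway by role, 1 point a gene, filled and named where the adjusted p was below 0.05. With shNBD1 3 of the 6 GCN1-linked factors fell, led by ZC3H15 at -0.79, and with the inhibitors TNRC6A (0.64) was the 1 gene past the threshold.

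The GCN1-linked factors held 3 of the 6 genes of this list that fell with shNBD1, out of 6 measured, where 9.15% of all genes fell. So small a group allows no reading of its share. ZC3H15, which binds and stabilises the ribosome-associated GTPase DRG1, had 44.5 and 44.4 CPM with shNBD1 against 74.5 and 79.8 CPM in the shRNA control. Its log2 fold change was -0.79 ± 0.07 (edgeR adjusted p = 0.000112), and it passed under all 13 alternatives. DRG1 itself had 141 and 133 CPM with shNBD1 against 182 and 173 CPM in the shRNA control, a log2 fold change of -0.37 ± 0.07 (edgeR adjusted p = 0.00486). RWDD1, partner of the related GTPase DRG2, whose yeast counterpart Gir2 binds Gcn1, had 35.0 and 34.8 CPM with shNBD1 against 46.6 and 46.3 CPM in the shRNA control, a log2 fold change of -0.41 ± 0.08 (edgeR adjusted p = 0.00559). In each of the 3 genes both hairpin libraries lay below both controls, as they also did in RNF14 and RNF25. The groups did not overlap in 69% of all genes. The call of DRG1 was lost without shRNA control replicate 1 or shNBD1 replicate 2, and that of RWDD1 without either control or without shNBD1 replicate 2. DRG2 (0.04), RNF25 (-0.08) and RNF14 (-0.19) did not pass.

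In ZC3H15 and RWDD1 the treatments differed. The difference between the effects was -0.96 ± 0.10 on the log2 scale for ZC3H15 (edgeR adjusted p = 0.000697), past the threshold under all 17 alternatives, and -0.54 ± 0.11 for RWDD1 (edgeR adjusted p = 0.0174). With the inhibitors ZC3H15 had 74.1 and 74.3 CPM and its control 67.1 and 64.7 CPM. RWDD1 had 39.1 and 37.4 CPM with the inhibitors and 35.1 CPM in both libraries of their control. The difference of RWDD1 was lost without any 1 of the 4 libraries of the shRNA arm (edgeR, adjusted p up to 0.123). ZC3H15, DRG1 and RWDD1 were also higher in the shRNA control than in the inhibitor control. Whether that bears on their changes with shNBD1 or on the differences was not tested.

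Among enzymes that add or remove ubiquitin at the small subunit, and their substrates, 1 of 12 passed with shNBD1 (8.33%, against 18.3% of all genes). USP10, which removes ubiquitin from small-subunit proteins of stalled ribosomes, rose to 70.3 and 72.6 CPM with shNBD1, against 54.5 and 57.5 CPM in the shRNA control (log2 fold change 0.35 ± 0.07, edgeR adjusted p = 0.00846). The call was lost without either control library or without shNBD1 replicate 2. OTUD3, another such enzyme, had 9.74 and 6.46 CPM with shNBD1 and 11.6 and 12.4 CPM in the shRNA control (log2 fold change -0.56 ± 0.18, edgeR adjusted p = 0.0546). The small-subunit proteins that carry the marks, RPS10, RPS20, RPS2 and RPS3, lay between -0.03 and 0.19 with shNBD1 and did not pass. USP10 also differed between the controls, at -0.57 ± 0.07 for the shRNA control over the inhibitor control (edgeR adjusted p = 0.000419), and so did RPS20, at 0.62 ± 0.07 (edgeR adjusted p = 0.000169).

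The partners of repression include the TNRC6 scaffolds that carry GIGYF and EIF4E2 to miRNA targets. TNRC6C had 27.2 and 28.6 CPM with shNBD1 against 21.8 and 20.4 CPM in the shRNA control, a log2 fold change of 0.40 ± 0.09 (edgeR adjusted p = 0.0139). The call was lost without any 1 of the 4 libraries of the comparison. With the inhibitors TNRC6C had 33.9 and 33.2 CPM, against 27.3 and 26.9 CPM in the inhibitor control, and the log2 fold change of 0.31 ± 0.09 did not pass (edgeR adjusted p = 0.149). TNRC6B had 63.4 and 66.2 CPM with shNBD1 and 66.5 and 69.0 CPM in the shRNA control. Its log2 fold change was -0.06 ± 0.09 with shNBD1 (edgeR adjusted p = 0.669) and 0.25 ± 0.09 with the inhibitors (edgeR adjusted p = 0.218), and neither passed. TNRC6A had 48.7 and 48.0 CPM with shNBD1 and 42.0 and 44.9 CPM in the shRNA control, a log2 fold change of 0.16 ± 0.09 that did not pass (edgeR adjusted p = 0.244). With the inhibitors TNRC6A rose to 86.9 and 91.3 CPM, against 53.3 and 61.1 CPM in the inhibitor control, a log2 fold change of 0.64 ± 0.08 (edgeR adjusted p = 0.0280). That call was lost without inhibitor control replicate 1 or without inhibitors replicate 2 and on the 4 libraries of the arm alone. TNRC6A, TNRC6C and ZFP36L1 were also lower in the shRNA control than in the inhibitor control, at -0.40, -0.36 and -0.42 on the log2 scale. ZFP36L1, which binds AU-rich elements, had 19.8 and 24.6 CPM with shNBD1 against 29.8 and 31.4 CPM in the shRNA control, a log2 fold change of -0.46 ± 0.11 (edgeR adjusted p = 0.0177). The call was lost without either control library or without shNBD1 replicate 1. ZFP36 (0.70, edgeR adjusted p = 0.114) and ZFP36L2 (0.29, edgeR adjusted p = 0.389) had the opposite sign with shNBD1 and did not pass. EIF4E, the cap-binding protein of normal initiation, stood at -0.26 with shNBD1 and did not pass (edgeR adjusted p = 0.071).

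In the group of message decay and of relatives of PELO and HBS1L, 1 of 10 genes rose and 1 fell with shNBD1 (20%, against 18.3% of all genes). N4BP2, a relative of the yeast nuclease Cue2 that cuts messages at collisions, had 19.9 and 19.5 CPM with shNBD1 against 28.8 and 32.4 CPM in the shRNA control (log2 fold change -0.63 ± 0.14, edgeR adjusted p = 0.0106). GTPBP2, a GTPase that works with Pelo on stalled ribosomes in mouse, had 54.1 and 53.3 CPM with shNBD1 against 44.4 and 43.1 CPM in the shRNA control (log2 fold change 0.30 ± 0.08, edgeR adjusted p = 0.0230). Both calls were lost without any 1 of the 4 libraries, and that of GTPBP2 also in DESeq2. N4BP2 was also higher in the shRNA control than in the inhibitor control, by 0.50 ± 0.13 on the log2 scale (edgeR adjusted p = 0.0200). Whether that difference between the controls bears on the fall of N4BP2 with shNBD1 was not tested. The termination factors ETF1 (-0.09), GSPT1 (-0.15) and GSPT2 (-0.05) and the helicase of the Ski complex, listed as SKIV2L (0.29), did not pass.

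Of 10 genes that clear the nascent chain from the large subunit, 1 fell with shNBD1 and 0 rose (10%, against 18.3% of all genes called). UFD1, a cofactor of the ATPase VCP, had 262 and 257 CPM with shNBD1 against 306 and 296 CPM in the shRNA control, a log2 fold change of -0.22 ± 0.06 (edgeR adjusted p = 0.0365). The call was lost without any 1 of the 4 libraries, in DESeq2 and with no filter on low counts. It lies outside the rule for named genes and was added after its value was seen. LTN1, the ubiquitin ligase of this step, stood at -0.24 ± 0.08 and did not pass (edgeR adjusted p = 0.0550). ABCE1, which splits ribosomes after termination, had 157 and 154 CPM with shNBD1 and 166 and 173 CPM in the shRNA control, a log2 fold change of -0.12 ± 0.07 that did not pass (edgeR adjusted p = 0.238). With the inhibitors ABCE1 had 158 and 171 CPM, against 131 and 138 CPM in the inhibitor control. That log2 fold change of 0.29 ± 0.07 did not pass either (edgeR adjusted p = 0.121). ABCE1 was higher in the shRNA control than in the inhibitor control, by 0.33 ± 0.07 (edgeR adjusted p = 0.00676).

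Of the 5 genes of signalling from collided ribosomes, 0 passed in edgeR's test with shNBD1 (against 18.3% of all genes) and 0 with the inhibitors (against 0.12%). At an unadjusted p under 0.05 there were 2 with shNBD1 (40%, against 33.2% of all genes) and 0 with the inhibitors (against 16.4%). The 2 were IMPACT (log2 fold change -0.33 ± 0.13, edgeR adjusted p = 0.0904) and EIF2S1 (-0.22 ± 0.08, edgeR adjusted p = 0.0971). MAP3K20 stood at -0.19 ± 0.09 (edgeR adjusted p = 0.197). In these genes and in EIF2AK4 the hairpin libraries lay below both controls, while in 69% of all genes these groups did not overlap. The kinase GCN2, listed as EIF2AK4, had 52.6 and 53.8 CPM with shNBD1 and 56.3 and 58.9 CPM in the shRNA control (log2 fold change -0.11 ± 0.13). ATF4, whose translation rises when eIF2 is phosphorylated, had 165 and 158 CPM with shNBD1 and 163 and 157 CPM in the shRNA control (log2 fold change 0.01 ± 0.12, 95% interval -0.27 to 0.29). With the inhibitors ATF4 had 119 and 151 CPM, and 104 and 133 CPM in the inhibitor control (log2 fold change 0.19 ± 0.13, 95% interval -0.09 to 0.46, edgeR adjusted p = 0.479). The groups overlapped in the inhibitor arm for ATF4, and between the controls it was higher in the shRNA control by 0.44 ± 0.12 on the log2 scale (edgeR adjusted p = 0.0270).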

How the data were processed

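Footprints of 8 libraries in 4 groups were analysed. Lysates held cycloheximide, and a modified mammalian ribosome profiling kit was used, per the labels' protocols. GRCh38, Bowtie and cutadapt appear in the submitters' processing notes; how reads were counted, whether rRNA was removed and what became of reads with several matches is not given in the sources used here. Raw counts were deposited by the authors, whole numbers of reads for each gene and transcript pair, and a pair missing from a file was taken as 0. The 18037 features were summed to 17179 symbols. The members and lists were chosen with earlier results of these data known.

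Counts were tested with edgeR 4.0.16 (R 4.3.3): filterByExpr (minimum count 10, minimum total 15), TMM scaling, a quasi-likelihood fit of the 4 groups over all 8 libraries (4 residual degrees of freedom, common biological coefficient of variation 0.0753), and Benjamini-Hochberg adjustment over 13306 genes with a threshold of 0.05. The SE is that implied by the test, and errors do not cover amplification of reads. The steps were run on simulated counts with 1 spread for each gene over all 8 libraries, which cannot test the unlike spread of the arms. DESeq2 1.42.0, limma-voom (limma 3.58.1), RLE size factors, other filters, leaving out dominant features, a replicate block, the 4 libraries of a comparison alone and leaving out each library were alternatives. Named genes of the pathway list were those called, up to 8 of smallest p, and 2 of smallest p not called; other genes named were chosen after their values were seen. Gene positions come from RefSeq (GRCh38.p14), which named all 10 listed genes. Density per coding length was not computed, as no lengths were used.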

Additional observations from a re-analysis of the deposited data

Results flagged for a closer look

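By the test of the difference itself, the effects of shNBD1 and of the inhibitors differed in 6 of the 54 genes of the wider pathway (11.1%, edgeR). They differed in 0 of the 8 collision factors and in 7.44% of all genes. DESeq2 and limma-voom also called 0 of the 8. At an unadjusted p under 0.05 in edgeR there were 0 of the 8, against 24.5% of all genes. The value is the shNBD1 effect minus the inhibitor effect on the log2 scale. It was -0.96 for ZC3H15, -0.96 for OTUD3, -0.54 for RWDD1, -0.48 for TNRC6A, -0.41 for ABCE1 and 0.40 for GTPBP2. USP10 (0.37, edgeR adjusted p = 0.0537) and DRG1 (-0.33, edgeR adjusted p = 0.0643) did not pass. The difference for ZC3H15 passed in all 17 alternatives, that for RWDD1 in 13, OTUD3 in 12, ABCE1 in 11, TNRC6A in 10 and GTPBP2 in 6. For RWDD1, ABCE1, TNRC6A and GTPBP2 it was lost without any 1 library of the shRNA arm. OTUD3, which removes ubiquitin from the small subunit, had 9.74 and 6.46 CPM with shNBD1 and 11.6 and 12.4 CPM in the shRNA control, and 14.0 and 16.5 CPM with the inhibitors and 11.9 and 11.03 CPM in the inhibitor control. Its difference was lost without shNBD1 replicate 2, inhibitors replicate 2, inhibitor control replicate 2 or either shRNA control library.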

How the results depend on the processing

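In each comparison the 8 genes gave the same counts of calls under RLE size factors, DESeq2, limma-voom, no filter on low counts, a mean of at least 50 counts and without dominant features. The counts moved with the libraries, and with shNBD1 leaving out 1 library also lowered the calls over all genes. With shNBD1, leaving out 1 library left 0 to 0 members higher and 0 to 0 lower, and 0 to 1 higher and 1 to 4 lower of the 54 other genes. On the 4 libraries alone 2 members were lower, with 10 other genes higher and 23 lower. That fit called 41.9% of all genes, 2725 higher and 2589 lower. With the inhibitors, leaving out 1 library gave 0 to 1 members higher and 0 to 1 lower, and 0 to 5 other genes higher and 0 to 1 lower; the 4 libraries alone gave 0 other genes higher. For the difference these ranges were 0 to 1 other genes higher and 1 to 7 lower, and DESeq2, limma-voom, no filter and leaving out dominant features gave 0 higher, a mean of at least 50 counts 2. Between the controls they were 0 to 2 members higher, 0 to 1 lower, 3 to 14 other genes higher and 1 to 7 lower. In these fits an arm with 1 library is assumed to vary like the other groups.

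The labels do not say that a replicate number marks a shared culture or day, and with 2 numbers the data cannot settle it, so the numbers were not taken as pairs. Same-numbered deviations correlated across genes at 0.478 for the inhibitors with their control, at 0.024 for shNBD1 with its own, and at 0.168 and 0.193 for shNBD1 with the inhibitors and with the inhibitor control. With a replicate block 2 members, ASCC3 and HBS1L, and 11 other genes were lower with shNBD1, as were 1679 of all genes. In that fit 3 other genes were higher with the inhibitors, and 2 were higher and 13 lower in the difference. With the replicate block within arms the same 2 members were lower with shNBD1, with 8 other genes higher and 20 lower. Of all genes 2516 were higher and 2493 lower there. With the inhibitors that block gave 2 members higher, PELO (edgeR adjusted p = 0.0016) and EDF1 (0.0037), and 1 lower, ASCC3 (0.00077), and 15 other genes higher and 3 lower, and in the difference 1 member higher, GIGYF1, 3 other genes higher and 18 lower. All genes called with the inhibitors numbered 5 higher and 11 lower, 40 and 70 by DESeq2, 74 and 105 with no filter, 355 and 320 with the replicate block, and 1413 and 1112 with the block within arms.

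Without both inhibitor control replicate 1 and inhibitors replicate 2, chosen after seeing the data, 4 other genes were higher with the inhibitors. The difference then had 1 member higher and 2 lower, and 9 other genes higher and 21 lower, and the controls 2 members higher, 2 lower and 13 other genes lower. Its log2 fold changes of opposite sign with the inhibitors were 0.052 for ASCC3, -0.17 for GIGYF1, -0.027 for PELO, 0.12 for HBS1L and -0.032 for GCN1, in the difference 0.027 for EDF1, 0.14 for PELO and 0.065 for GCN1, and between the controls -0.0039 for ASCC2. With a mean of at least 50 counts the controls gave -0.0021 for ASCC2 and -0.0091 for ASCC3. Leaving out 1 library, signs turned within these ranges: with shNBD1 ASCC2 -0.032 to 0.021; with the inhibitors GIGYF1 -0.023 to 0.32 and HBS1L -0.16 to 0.067; in the difference ASCC3 -0.31 to 0.0198, EIF4E2 -0.013 to 0.0401, PELO -0.32 to 0.0064 and GCN1 -0.14 to 0.0094; between the controls ASCC2 -0.0065 to 0.053, ASCC3 -0.14 to 0.19 and EDF1 -0.12 to 0.0083. The cause of these changes was not tested. Density per coding length was not run. Counting error limits GIGYF1 and EIF4E2 most.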
